A study of Mus musculus with 2 samples.

Results

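The peaks described here are the strongest places of TCF12 binding in CH12.LX cells. They were chosen by their measured signal: every peak of the optimal list with a pooled signal of 200 or more was taken. The rule gave 459 of 35848 optimal peaks, or 1.28%. Chromatin immunoprecipitation and sequencing (ChIP-seq) with an antibody to TCF12 was carried out in 2 biological replicates of CH12.LX, an immortalised B-cell lymphoma line from a female mouse of strain B10.H-2aH-4bp/Wts, with no treatment named in the labels. Both replicates form 1 group from 1 line, so the comparisons are between the strongest peaks and the other optimal peaks, 35377 of them on chromosomes 1 to 19 and X. The signal is the peak caller's own value, with no stated scaling, and the read depth behind it is unknown.

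TCF12 (HEB) belongs to the E proteins, a family of basic helix-loop-helix transcription factors that bind DNA as dimers. A dimer reads the E-box, CANNTG, and each partner contacts one side of it. In lymphocytes the E proteins act at enhancers of lineage genes, with E2A, E2-2 and HEB partly standing in for each other, and they are held in check by ID proteins, which lack the DNA-binding region. CAGCTG and CACCTG are the forms called main E-boxes below.

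The sequences under 9 strongest summits away from promoters show how main E-boxes sit there. Each is the plus strand of the 101 bp centred on the summit, read on mm9, with main E-boxes in capitals on either strand (CAGGTG is CACCTG read from the other strand). They are among the strongest summits, those with the most main E-boxes and those with the most uneven replicates.
Gas7 intron, mm9 chr11:67402542-67402642, 2 main E-boxes: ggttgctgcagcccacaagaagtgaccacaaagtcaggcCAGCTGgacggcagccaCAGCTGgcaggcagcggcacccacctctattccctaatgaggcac
Myrfl intron, mm9 chr10:116265366-116265466, 4 main E-boxes, the first pair end to end: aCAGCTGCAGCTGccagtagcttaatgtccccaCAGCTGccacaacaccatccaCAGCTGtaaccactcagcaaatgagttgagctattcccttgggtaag
Acoxl intron, mm9 chr2:127753398-127753498, 3 main E-boxes: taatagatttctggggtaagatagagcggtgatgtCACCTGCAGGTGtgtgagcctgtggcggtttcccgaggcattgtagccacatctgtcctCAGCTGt
upstream of Epha8, mm9 chr4:136525169-136525269, 3 main E-boxes: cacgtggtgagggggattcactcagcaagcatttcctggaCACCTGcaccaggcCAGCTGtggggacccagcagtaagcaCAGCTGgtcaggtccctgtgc
Clec16a intron, mm9 chr16:10668674-10668774, 3 main E-boxes: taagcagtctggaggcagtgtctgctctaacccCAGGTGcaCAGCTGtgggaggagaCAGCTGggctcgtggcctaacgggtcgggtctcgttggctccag
Prkca intron, mm9 chr11:108065707-108065807, 2 main E-boxes: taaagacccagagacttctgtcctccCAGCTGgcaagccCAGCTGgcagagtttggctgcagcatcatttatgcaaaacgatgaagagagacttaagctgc
upstream of Cdkn2aipnl, mm9 chr11:51749699-51749799, 2 main E-boxes: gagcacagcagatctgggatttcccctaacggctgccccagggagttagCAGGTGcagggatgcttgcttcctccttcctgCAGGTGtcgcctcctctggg
upstream of Ezh2, mm9 chr6:47571231-47571331, 1 main E-box: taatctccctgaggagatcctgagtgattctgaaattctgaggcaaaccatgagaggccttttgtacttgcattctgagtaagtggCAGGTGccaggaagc
St6gal1 intron, mm9 chr16:23301976-23302076, 1 main E-box: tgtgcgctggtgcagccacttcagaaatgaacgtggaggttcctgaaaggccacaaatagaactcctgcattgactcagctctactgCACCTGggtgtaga

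In the windows of the 4 strongest peaks, which follow, no main E-box lay within 50 bp of the summit, so no letter is in capitals.
Rab37 intron, mm9 chr11:114968094-114968194, no main E-box: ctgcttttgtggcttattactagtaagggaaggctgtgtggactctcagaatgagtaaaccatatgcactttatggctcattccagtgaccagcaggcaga
Arid3a intron, mm9 chr10:79403633-79403733, no main E-box: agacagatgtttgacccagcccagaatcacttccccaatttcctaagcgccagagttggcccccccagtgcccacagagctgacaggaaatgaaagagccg
Lrpprc promoter, mm9 chr17:85190182-85190282, no main E-box: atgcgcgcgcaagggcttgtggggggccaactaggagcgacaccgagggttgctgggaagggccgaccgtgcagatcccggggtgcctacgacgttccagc
Bag5 promoter, mm9 chr12:112951333-112951433, no main E-box: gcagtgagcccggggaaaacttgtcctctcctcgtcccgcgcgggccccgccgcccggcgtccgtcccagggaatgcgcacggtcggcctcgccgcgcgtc

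The values that chose the peaks are given as a description. Pooled signal reached 496, with a median of 235. In replicate 1 the strongest overlapping row had a signal of 96.7 to 273 with a median of 143, and in replicate 2 it had 51.6 to 230 with a median of 98.2. All 459 had the highest IDR score of 1000, against 53.3% of the other optimal peaks. All 459 overlapped a peak of the conservative list, as did 83.3% of the other optimal peaks. The threshold fell where the values were dense: just inside it were peaks at H2ac6 with 200.17, nearest to Rnft1 with 200.16 and at Eif2b5 with 200.003. Just outside it were peaks nearest to Cacnb4 with 199.98, nearest to Txlnb with 199.91 and at Eral1 with 199.88.

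The replicate signals make up the pooled signal that chose these peaks, so the agreement of the replicates is described only. Pooled signal was a median of 0.998 times the sum of the replicate signals, and replicate 1 made up a median of 59.3% of that sum. Overlap with the ranking of either replicate therefore follows in part from the choice. Of the 459, 385 (83.9%) were among the 459 strongest optimal peaks by replicate 1 alone and 355 (77.3%) by replicate 2 alone. By both they numbered 291 (63.4%), and 10 were in neither set. Replicate 1 was higher at 443 (96.5%) of the strongest peaks, against 85.5% of the 34346 other optimal peaks found in both replicates. The ratio of replicate 1 to replicate 2 had a median of 1.46 (interquartile range 1.27 to 1.66) at the strongest peaks and 1.66 (1.21 to 2.35) at the others. Summits of the replicates lay a median of 10 bp apart at the strongest peaks and 37 bp apart at the others.

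**Figure D1:**
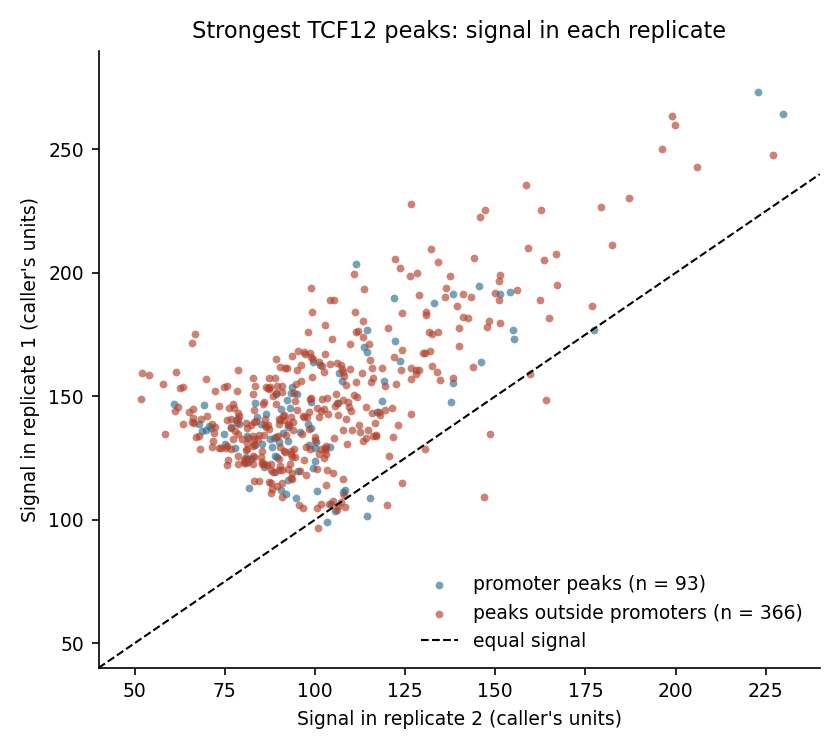
Signal of the 459 strongest peaks in replicate 2 (x axis) and replicate 1 (y axis), both in the caller's units; each point is 1 peak, coloured by whether its summit lies within 1 kb of an annotated 5′ end, and the dashed line marks equal signal. Nearly all points sit above the line, and 16 lie below it.

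A few peaks stood apart in that ratio. The peak 5.95 kb upstream of Socs3, which encodes a suppressor of cytokine signalling, had 159 in replicate 1 and 52.0 in replicate 2. The peak in a Prkca intron, shown above with its pair of CAGCTG sites, had 159 and 54.0. At the other end, a peak nearest to Mrpl39, on mm10 chr16:84621452-84621699 and 114 kb from its 5′ end, had 109 in replicate 1 and 147 in replicate 2. The 16 peaks higher in replicate 2 included the promoters of Rpl5, with 102 in replicate 1 and 115 in replicate 2, and of Rps6, with 109 and 115. Both encode proteins of the cytosolic ribosome.

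Position was not used to choose the peaks. A summit within 1 kb of an annotated 5′ end was called a promoter summit. The strongest peaks lay in promoters less often than the others, 93 of 459 (20.3%) against 10402 of 35377 (29.4%), a difference of -9.14 percentage points (95% interval -12.6 to -5.20). More of them lay outside genes, 43.6% against 31.3% (difference 12.2 points, 7.73 to 16.8). In gene bodies outside promoters there were 36.2% of the strongest and 39.2% of the others, an interval that spans 0 (-7.38 to 1.44). The median distance to the nearest 5′ end was 18734 bp for the strongest peaks and 9818 bp for the others. Intervals cover counting error only, treat neighbouring peaks as independent, and give no account of the spread between replicates.

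The promoter share did not fall steadily with signal. Across all optimal peaks it was 24.8% below a signal of 50, 41.0% from 50 to 100, 38.5% from 100 to 150, 28.7% from 150 to 200 and 23.0% from 200 to 250. Against peaks with a signal from 100 to below 200 the difference was larger, 20.3% against 36.1% (-15.8 points, -19.7 to -11.5). When as many peaks were ranked by replicate 2 alone, the difference from all others shrank to -4.51 points (-8.27 to -0.33), and at a threshold of 150 it was -4.11 points.

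**Figure D2:**
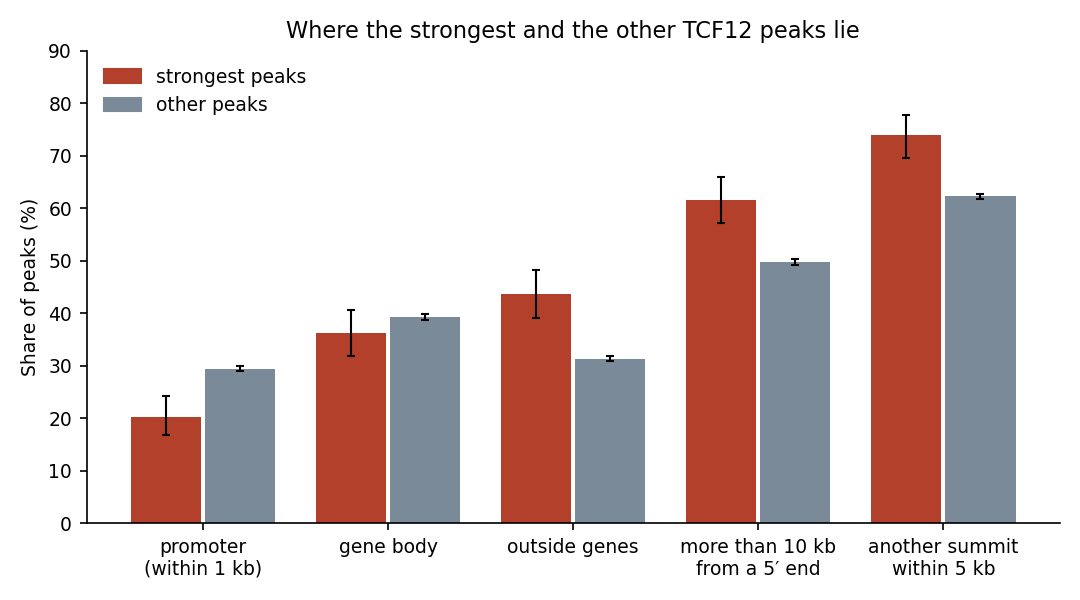
Share of the strongest peaks (left bar of each pair, n = 459) and of the other optimal peaks (right bar, n = 35377) in each position class, in percent, with error bars giving the 95% Wilson interval. The strongest peaks are lower in promoters and higher outside genes and beside another summit.

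Most of the strongest peaks had another optimal summit near them, with no minimum distance set, so adjoining calls count as neighbours. Another optimal summit lay within 5 kb of 73.9% of them, against 62.2% of the other peaks (difference 11.6 points, 7.38 to 15.5). At a threshold of 150 this difference was 6.70 points (3.92 to 9.36). The difference came with the peaks outside promoters, 79.0% against 62.2% (16.7 points, 12.2 to 20.6), while in promoters the strongest had 53.8% and the others 62.2%, with an interval that spans 0 (-18.6 to 1.35). Neighbours among the strongest peaks themselves were fewer: 49 had another of the 459 within 12 kb, and 3 had at least 2 others. Pairs of this kind included 2 peaks upstream of Cbfa2t3, whose product is an ETO-type corepressor, with signals of 417 and 253, where the weaker was the widest of all at 752 bp. In Rab37, which encodes a small GTPase of vesicle secretion, 2 peaks had signals of 473 and 226.

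Sequence was read on mm9, where each optimal peak could be matched with a peak of the mm9 list by its nearest gene and its distance to that gene's 5′ end. The match was found for 277 of the 459 strongest peaks (60.3%) and for 13712 of the other peaks (38.8%), so the windows are a subset of both. Of the 277, 253 were also among the 459 strongest mm9 peaks.

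Outside promoters, main E-boxes were found at most of the strongest summits. A main E-box lay within 50 bp of the summit at 151 of 209 strongest peaks (72.2%) and at 3366 of 8464 other peaks (39.8%), a difference of 32.5 points (26.0 to 38.2). Windows of the same length centred 300 bp to the left and right of the 209 strongest summits held one in 13.9% and 10.5%. Against peaks with a signal from 100 to below 200 the difference was 17.2 points (10.1 to 23.6). With 100 bp either side of the summit, 89.0% of the strongest peaks and 53.8% of the others held a main E-box.

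Several E-boxes in 1 window were more common as well. At least 2 main E-boxes lay within 50 bp of 26.8% of the strongest summits outside promoters, against 9.55% of the others (17.2 points, 11.7 to 23.7). At least 3 were found at 6.22% and 1.95% (4.27 points, 1.70 to 8.41). The richest was the window in the Myrfl intron printed above, with 4 copies of CAGCTG; that peak had a signal of 213, from 133 in replicate 1 and 81.3 in replicate 2. The 3 CACCTG or CAGCTG sites of the Acoxl window went with signals of 176 and 134 in replicates 1 and 2. Where a window held several, neighbouring main E-boxes were spaced alike: starts lay a median of 21.5 bp apart over 70 gaps in the strongest peaks and 24 bp apart over 1081 gaps in the others.

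Both main forms were more common. CAGCTG was found at 37.3% of the strongest summits outside promoters, against 19.7% of the others (17.6 points, 11.3 to 24.4), and CACCTG at 49.8% against 25.4% (24.3 points, 17.5 to 31.1). Both forms together were present in 14.8% of the strongest windows and 5.39% of the others. CATCTG was found in 22.0% and 15.7% (6.36 points, 1.21 to 12.5), while CACGTG, the form read by MYC and USF proteins, was found in 2.39% and 2.76% (-1.79 to 2.73). The bases flanking the core were read in all matched windows, promoters included, and differed in part. Of the CAGCTG sites, 26.7% of 101 in the strongest windows read ACAGCTGG, against 14.7% of 2313 in the others (12.0 points, 4.18 to 21.5). ACAGCTGC made up 19.8% and 21.0% (-7.98 to 7.79). ACAGCTGG differed most of all flanking contexts of both main forms, and the intervals were not adjusted for the number of contexts.

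**Figure D3:**
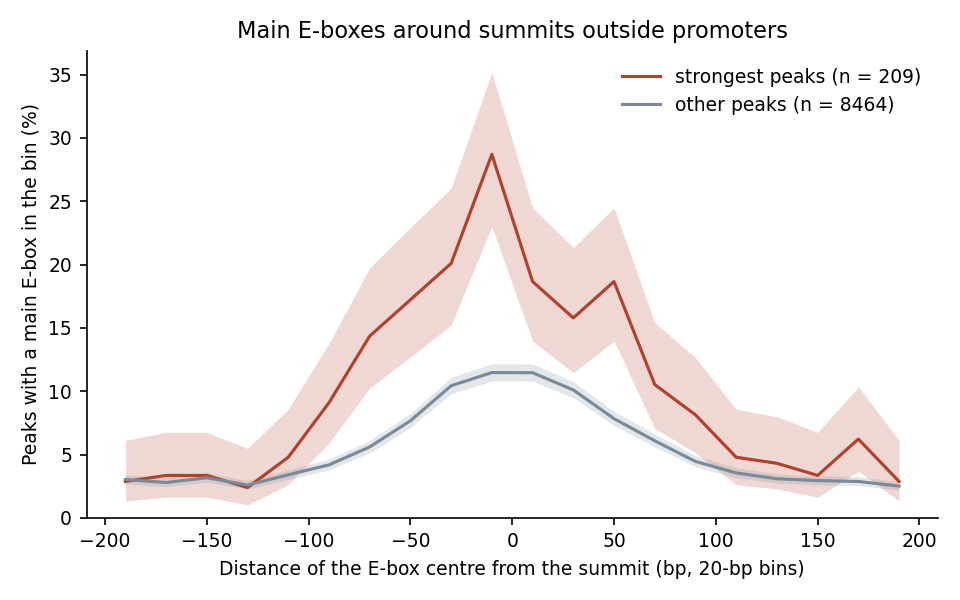
Share of peaks outside promoters with a main E-box centred in each 20-bp bin (y axis, percent) by distance from the summit (x axis, bp), for the strongest peaks (n = 209) and the other peaks (n = 8464); shading is the 95% Wilson interval. The strongest peaks reach 28.7% in the bin just left of the summit, against 11.5% for the other peaks, and both fall to about 3% near 200 bp.

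Summits without a main E-box were not weaker among the strongest. The 58 of 209 outside promoters had a median signal of 242, against 239 for the 151 with one; both sets were chosen on signal, so this is a description. Of the 58, 35 had a main E-box within 100 bp of the summit, and 28 held a CANNTG of another form within 50 bp, which was CATCTG in 15 of the 28. The nearest main E-box was centred at -74 bp from the summit for the Rab37 peak and at -56 bp for the Arid3a peak. Arid3a encodes Bright, which binds matrix attachment regions at the immunoglobulin heavy-chain locus, and its intron peak had 264 in replicate 1 and 199 in replicate 2.

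In promoters the picture was different. A main E-box lay within 50 bp of 9 of 68 strongest promoter summits (13.2%) and of 732 of 5248 other promoter summits (13.9%), a difference of -0.71 points (-6.90 to 9.37). The sign of this difference varied with the processing, and its interval left out 0 only when the strongest peaks of the mm9 list were set against the rest of that list, at 7.54 points (0.40 to 16.8). Of the 93 strongest promoter peaks, 30 could also be read in RefSeq promoter sequence on mm10, and 2 of these, at Tlr9 and Tnfrsf8, held one. Tlr9 encodes the endosomal receptor for unmethylated CpG DNA.

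**Figure D4:**
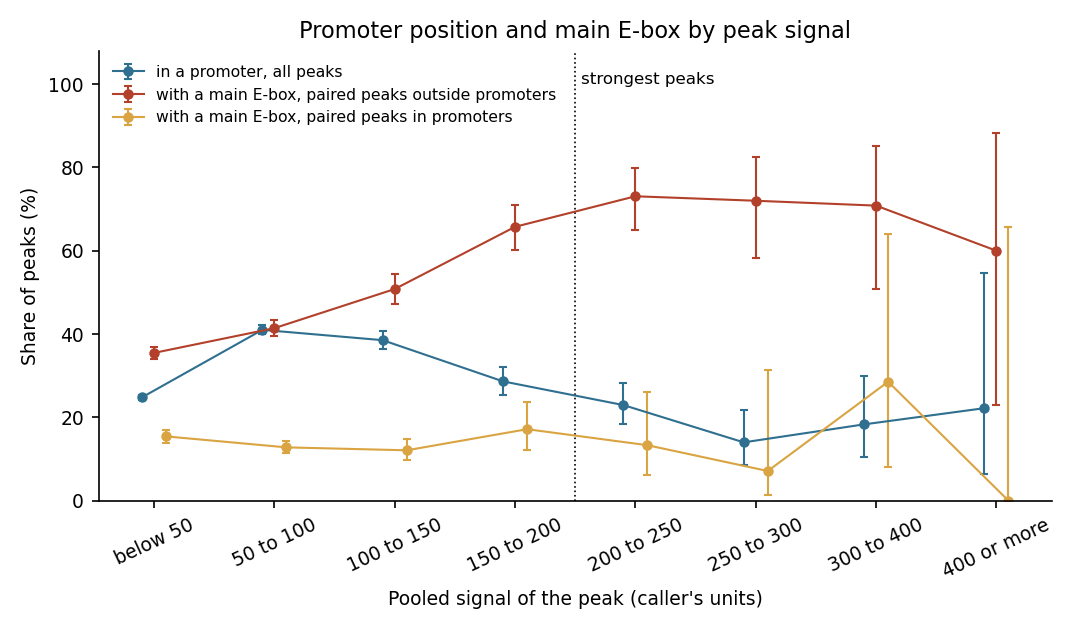
Share of peaks (y axis, percent) by pooled signal (x axis, caller's units, low to high) in promoters, and with a main E-box within 50 bp of the summit for matched peaks outside and in promoters; bars are 95% Wilson intervals and the dotted line marks the start of the strongest peaks. Outside promoters the share with a main E-box is 35.5% below a signal of 50 and 73.1% from 200 to 250, while in promoters it is 15.4% and 13.3%.

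Among the strongest promoter peaks, those with a main E-box lay further from the 5′ end. The 9 with one were a median of 291 bp away and the 59 without one 43 bp. They were at Psmc3ip, Lrp6, Il4, Rinl, Ccdc88b, Msh6, Tlr9, Amz2 and Bcl2l11. The peak at Bcl2l11, which encodes the pro-apoptotic protein BIM, had 131 in replicate 1 and 75.2 in replicate 2, and that at Lrp6, a WNT co-receptor gene, had 164 and 146. Within 100 bp of the 5′ end a main E-box was found at 3 of 53 strongest peaks (5.66%) and at 11.6% of 3339 other promoter peaks. From 101 to 1000 bp away it was found at 6 of 15 (Wilson interval 19.8% to 64.3%) and at 18.1% of 1909. This split was chosen after the values were seen and was not tested.

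Other letters were found at the strongest promoter summits. The YY1 motif AAGATGGCG, searched on both strands like every motif, lay within 50 bp of 10 of 68 (14.7%) and of 4.59% of the other promoter summits (10.1 points, 3.57 to 20.4). It was found in 0.74% of the flanking windows of those 68. YY1 is a zinc finger factor known for sites just downstream of start sites. Of the 10 peaks, 9 had their summit 5 to 56 bp downstream of the annotated 5′ end, and the tenth, at Dcakd, lay 185 bp upstream. They included Taf5, a TFIID subunit gene, with 177 in both replicates, Med1, a Mediator subunit gene, with 110 in replicate 1 and 92.1 in replicate 2, and Rps3, with 103 and 105. By the ranking of replicate 1 alone the shares were 13.8% and 4.61%, and by replicate 2 alone 13.8% and 4.57%.

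TATAAA, the core of the TATA box, was added to the search after the windows had been read. It was present at 9 of the 68 (13.2%) and at 78 of 5248 other promoter summits (1.49%), and outside promoters at 1.44% and 2.14%. They included Polr2a, Rps20, H1f4, Gtf2f1, Zswim6, Arl15, Nfkbia and H2ac6. The H1f4 match was in its mm9 window, and the window centred on its mm10 summit held no TATAAA. Polr2a, which encodes the largest subunit of RNA polymerase II, had 170 in replicate 1 and 113 in replicate 2, and Nfkbia, the gene of the NF-kappaB inhibitor, had 124 and 81.3. Since the motif was picked from these windows, the contrast is given without a test. A match is a description of letters, not a site.

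The following 5 promoter windows show these letters, in capitals, on the plus strand: the YY1 motif (CGCCATCTT when read from the other strand), the TATA core (TTTATA when read from the other strand) and, in Tlr9, the main E-box. The mm10 sequences are from RefSeq promoters of GRCm38.p6; all but Taf5 were picked after their letters were seen.
Taf5 promoter, mm9 chr19:47142197-47142297, YY1 motif: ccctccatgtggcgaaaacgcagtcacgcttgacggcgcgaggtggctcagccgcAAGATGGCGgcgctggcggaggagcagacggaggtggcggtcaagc
Ctnnb1 promoter, mm10 chr9:120933399-120933499, TATAAA, then the YY1 motif on the minus strand: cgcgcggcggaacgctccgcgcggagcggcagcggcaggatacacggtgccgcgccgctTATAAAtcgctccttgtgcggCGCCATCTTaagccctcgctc
H1f3 promoter, mm10 chr13:23554925-23555025, TATAAA: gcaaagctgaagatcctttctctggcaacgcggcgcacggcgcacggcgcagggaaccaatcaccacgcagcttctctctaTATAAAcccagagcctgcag
H2ac6 promoter, mm10 chr13:23683982-23684082, TATAAA on the minus strand: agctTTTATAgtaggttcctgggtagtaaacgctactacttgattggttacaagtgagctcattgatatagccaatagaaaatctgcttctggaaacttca
Tlr9 promoter, mm10 chr9:106222503-106222603, 1 main E-box: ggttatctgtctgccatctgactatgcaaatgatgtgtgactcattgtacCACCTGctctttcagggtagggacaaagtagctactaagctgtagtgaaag

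In percentage points, the motifs of other factors below differed less than the main E-boxes, though points depend on how common a motif is. Outside promoters the RUNX motif TGTGGT was found at 22.5% of the strongest summits and 15.4% of the others (7.08 points, 1.89 to 13.3), and the IRF motif GAAANNGAA at 8.61% and 4.90% (3.71 points, 0.58 to 8.32). By the ranking of replicate 1 alone the IRF interval spanned 0 (2.20 points, -0.60 to 6.53). CCAAT, the NFY motif, was lower, at 3.83% and 8.45% (-4.62 points, -6.59 to -1.03). By the ranking of replicate 2 alone that interval spanned 0 (-6.26 to 0.05). EBF1, with CCCNNGGGA, was found at 7.18% and 5.51% (-1.15 to 6.02) and AP-1, with TGANTCA, at 21 of 209 and 949 of 8464 (-4.62 to 3.70 points). The CTCF motif AGGGGGCGC was found at 0 of 209 strongest summits, which allows a share of up to 1.80% by the Wilson interval, and at 0.61% of the others. With 34 motifs compared in each class and intervals not adjusted for their number, some would leave out 0 with no difference; among them was the control palindrome CGATCG outside promoters, present in 1 of 209 strongest and 6 of 8464 other windows.

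**Figure D5:**
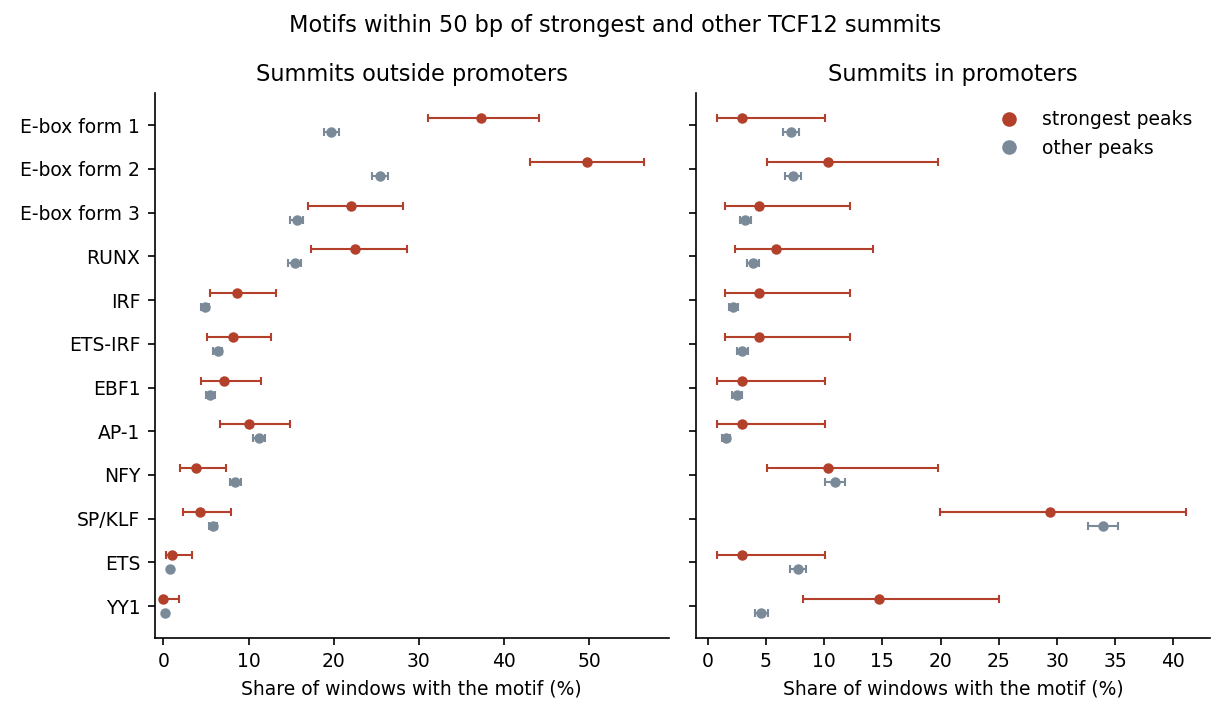
Share of summit windows with each motif (x axis, percent) outside promoters (left) and in promoters (right), for the strongest peaks (upper point of each pair) and the other peaks (lower point), with 95% Wilson intervals; E-box form 1 is CAGCTG, form 2 is CACCTG and form 3 is CATCTG. Outside promoters the points of E-box forms 1 and 2 are far apart and those of form 3 less so. In promoters the E-box points are close and the YY1 points are apart.

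Genes of the ribosome and of histones recurred among the strongest promoter peaks. Genes of cytosolic ribosomal proteins were nearest to 9 of the 93 (9.68%) and to 73 of the 10402 other promoter peaks (0.70%); by replicate 1 alone they were nearest to 5 of 90 and by replicate 2 alone to 15 of 114. By pooled signal the highest was Rpl26, with 144 in replicate 1 and 117 in replicate 2, and the lowest Rps3. Genes of linker and core histones were nearest to 4 (4.30%) and to 65 (0.62%). The 4 were H1f2 with 190 in replicate 1 and 122 in replicate 2, H1f4 with 135 and 95.7, H1f3 with 130 and 83.4, and H2ac6 with 109 and 94.9. All 4 lay 57 to 80 bp upstream of the 5′ end on chromosome 13. Both gene groups were picked after the peaks had been seen, so no test is given.

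Across genes, 310 of 21260 carried at least 1 strongest peak in the gene or the 10 kb before it, which is 1.46%, while 57.2% carried any optimal peak. The lists below were chosen with earlier results known and hold genes of different lengths, so their counts are descriptions. Among 30 genes of B cell identity and receptor signalling 29 carried an optimal peak. A strongest peak was carried by 5 (16.7%, against 1.46% of all genes). They were Pax5 (157 in replicate 1 and 116 in replicate 2), the factor that holds B cell commitment, Ikzf3 (158 and 82.7), Ciita (157 and 69.8), the activator of MHC class II genes, Bank1 (106 and 106), and Cd79b (135 and 74.7), a signalling chain of the B cell receptor. The Cd79b peak sat 7 bp upstream of the 5′ end and the other 4 lay inside genes.

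All 26 genes of B cell activation and the germinal centre carried an optimal peak. Of these, 5 (19.2%, against 1.46% of all genes) carried a strongest peak: Il21r, Mef2b, Cd80, Nfkb1 and Nfkbia. Mef2b, a germinal centre transcription factor gene, had 2, with pooled signals of 269 and 240. Cd80, which encodes a ligand of T cell costimulation, had 151 in replicate 1 and 111 in replicate 2. Of 17 plasma cell genes 15 carried an optimal peak and 3 (17.6%) a strongest peak. Mzb1, the gene of an endoplasmic reticulum cofactor of antibody secretion, had 208 and 167, Ell2, an elongation factor gene, 143 and 118, and Sec11c, a signal peptidase gene, 132 and 71.6. Of 14 B-1 cell genes 13 carried an optimal peak and 3 (21.4%) a strongest peak. Arid3a and Nfatc1 had 2 strongest peaks each and Il10 had 1. CH12.LX expression was not measured in these files.

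Among 22 regulators of small GTPases and the cytoskeleton 21 carried an optimal peak. A strongest peak was carried by 6 (27.3%, against 1.46% of all genes). Besides Rab37 and Gas7 they were Cyfip2, a WAVE complex gene, with a pooled signal of 371, Cyth1 with 354, Dennd4b with 223 and Vav2 with 217. Of 12 genes of surface glycosylation 3 carried one, with St6gal1 at 450, Mgat5 at 236 and St3gal6 at 221. Of 19 genes encoding E proteins, their ID inhibitors or their cofactors 1 carried a strongest peak, Cbfa2t3. This share of 5.26% (Wilson interval 0.94% to 24.6%) cannot be told apart from the 1.46% of all genes. The highest peaks in the windows of Tcf4, Tcf3, Id2, Id3 and Tcf12 had signals of 159, 152, 104, 86.0 and 80.4, below the threshold. Beyond its window, Id2 had the nearest 5′ end to 2 strongest peaks, with signals of 322 at 113 kb and 222 at 94.5 kb upstream. Runx1, which encodes a RUNX-family factor, was nearest to 1 of signal 289 at 203 kb upstream. Lmo2, Zeb1, Zeb2 and Runx1t1 were nearest to 1 each, with signals of 206 to 212. Those peaks lay 40.2, 215, 1254 and 418 kb from the respective 5′ ends.

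Of 25 chromatin regulators none carried a strongest peak in its window and 24 carried an optimal peak; a count of 0 of 25 allows a share of up to 13.3% by the Wilson interval, above the 1.46% of all genes. Beyond the window, Ezh2, which encodes a histone methyltransferase of the Polycomb system and is also on the activation list, was nearest to the peak of signal 407 whose sequence is printed above, 26.0 kb upstream of its 5′ end. Tet2, the gene of a DNA demethylation enzyme, was nearest to a peak of signal 260.2 lying 139 kb upstream. The lists of myeloid (15 genes), erythroid (12), neuronal (14), muscle (14) and liver genes (13) had none in their windows, and at these sizes that count cannot be told apart from 1.46%. Of the 2 T cell genes with one, Lck had a peak of signal 208 in its window. That peak neither lay inside Lck nor had it as its nearest 5′ end.

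The genes with most strongest peaks in the gene or the 10 kb before it were on chromosome 11. Ksr1, which encodes a scaffold of the RAF, MEK and ERK kinases, held 4, with signals of 329, 224, 215 and 206, among 32 optimal peaks in its window. Of these, 3 were higher in replicate 1, among them the peak with 329, which had 200.1 in replicate 1 and 128 in replicate 2, while the peak with 224 had 106 and 120. Septin9, a gene of the septin cytoskeleton, held 3, with signals of 244, 243 and 211, among 39. Among the genes with 2, those with the highest signals were Rab37, Arid3a, St6gal1, Cbfa2t3, Jade2 and Acoxl. By nearest 5′ end, whatever the distance, Myc on chromosome 15 had 5, at 196 to 823 kb and with signals of 202 to 252.

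Chromosome 11 held 88 of the 459 strongest peaks (19.2%) and 10.9% of the other optimal peaks. It was singled out after the values of all chromosomes were seen, so no interval of the difference is given. The 88 were 2.23% of the optimal peaks of that chromosome, and on each of the others the strongest peaks were 0.21% to 1.73%, with the lowest, 1 of 467, on chromosome X. By the ranking of replicate 1 alone the share on chromosome 11 was 17.6% and by replicate 2 alone 19.8%. Of the peaks with a signal from 100 to below 200, 15.9% were on chromosome 11. Every 10-Mb window of the chromosome up to 120 Mb held at least 1 of them, and no window more than 17.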

How the data were processed

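TCF12 ChIP-seq peaks of 2 replicates were used as the authors deposited them, on mm10 and mm9 per the labels. The optimal and conservative lists had passed the irreproducible discovery rate (IDR) step and the relaxed lists had not, per the deposited file descriptions. Optimal peaks were derived from pooled replicates. The deposited signal is the caller's value per peak with unstated scaling, and the deposited score is the scaled IDR score. The sources used here do not name the aligner or the caller; control reads were not analysed here.

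Peaks were kept on chromosomes 1 to 19 and X. A peak's replicate signal was that of the strongest overlapping row in each relaxed list. Of 21631 protein-coding genes in RefSeq GRCm38.p6, 21260 had a strand, from RefSeq promoters (17274) or GENCODE vM1 (3986), and were used. The 5′ end was that of the gene span.

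Motifs were read 50 bp either side of summits on mm9 (NCBIM37) at peaks matched within 100 bp by signed distance to the same gene's 5′ end. No coordinate was converted. Windows read on both builds made the same main E-box call in 22 of 23 cases. Shares have 95% Wilson intervals and differences Newcombe intervals, for counting error only, and were called different where the interval left out 0. Peaks are not replicates, so no p-value is given. The calculations were tested on simulated data. Python 3.11.15, numpy 2.4.6, pandas 2.3.3, pysam 0.24.0 and samtools 1.23.1 were used.

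The peaks, 18 gene lists and 34 motifs were chosen with earlier results of these data known. Peaks named are the 15 strongest, the strongest in and far from promoters, extremes of replicate ratio, width and E-box number, those at the threshold, genes with most of these peaks and up to 5 genes per list. Promoter genes grouped by motif, ribosomal and histone genes, and chromosome 11 were added after their values were seen. The alternatives changed the ranking replicate, threshold, list, promoter distance, window, matching and comparison class. Results for some genes are not reported here.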

Additional observations from a re-analysis of the deposited data

How the results depend on the processing

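Differences in promoter share, in main E-box share over all summits and outside promoters, and in the share with another summit within 5 kb kept their sign and an interval that left out 0 under every alternative run. Ranked by 1 replicate alone (without the other), the promoter difference ran from -9.80 to -4.51 points, the main E-box difference over all summits from 19.4 to 30.9, that outside promoters from 28.7 to 34.1, that in promoters from -4.82 to 4.58 and the neighbour difference from 11.8 to 12.3. Over the other alternatives the promoter difference ran from -15.8 to -4.11 points, the last at a threshold of 150, the neighbour difference from 6.70 (main value 11.6), again at a threshold of 150, to 13.2, in the conservative list, and the E-box difference outside promoters from 17.2, against peaks with a signal from 100 to below 200, to 36.4, without chromosome 11.

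The E-box difference in promoters, -0.71 points, changed sign at a threshold of 150 (2.17), against peaks with a signal from 100 to below 200 (0.057), in windows of 25 bp either side (4.71), at a matching tolerance of 500 bp (2.78) and in the mm9 list (7.54). The mm9 interval alone left out 0, and the cause was not tested. The 500 bp tolerance and leaving out chromosome 11 were chosen after seeing the data. The median replicate ratio stayed between 1.46 and 1.47. No paired analysis was possible because there is 1 group. Read depth is unknown, and the 68 promoter windows limit what could be seen there.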

Other observations

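Motifs of other factors were counted together at summits outside promoters, as letters only: EBF1, the octamer, NF-kappaB, both ETS forms, RUNX, AP-1, IRF, ETS with IRF, and CTCF. At least 1 of these 10 motifs was found in 39 of 58 strongest windows without a main E-box (67.2%, Wilson interval 54.4 to 77.9) and in 2344 of 5098 other windows without one (46.0%, 44.6 to 47.3). Of the windows with a main E-box, 53.0% of 151 strongest and 42.4% of 3366 others held one. The set of motifs was chosen with these windows known, so no test is given.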
